A study of Mus musculus with 2 samples.

Results

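The genes described here are 10 genes of the NRF2 pathway and of antioxidant defence in mouse skeletal muscle: Nfe2l2, Keap1, Nqo1, Hmox1, Gclc, Gclm, Srxn1, Sod1, Sod2 and Cat. They were listed by name as NRF2, its inhibitor KEAP1, their targets, and superoxide and peroxide enzymes that are not selenoproteins; the rule uses no measured value, but the list was drawn up with earlier results of these data known. All 10 were found among the 34745 genes of the deposited count table. RNA of whole gastrocnemius, a calf muscle, was sequenced from C57BL/6 mice aged 8 weeks, with 1 library of the genotype CIPC-scko (called scKO) and 1 of the genotype CIPC-flox/flox (called flox/flox). By the series title, scKO is a deletion of Cipc, an inhibitor of the clock factors CLOCK and BMAL1, in satellite cells, the stem cells of muscle. In flox/flox muscle the gene is flanked by loxP sites, as the genotype name says, and both groups were taken at the same age and from the same strain. That title also speaks of the dystrophin-deficient mdx strain; neither the labels nor the design text does, and whether these muscles were dystrophic is not known. The labels name no Cre line and no hour of sampling, and they do not settle whether each library holds 1 animal or a pool.

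NRF2, the protein of Nfe2l2, is a transcription factor that pairs with small MAF proteins and binds antioxidant response elements in DNA. In resting cells KEAP1 holds NRF2 for ubiquitination by a CUL3 ligase and the proteasome removes it. Oxidants and electrophiles modify cysteines of KEAP1, NRF2 then accumulates, and genes for glutathione synthesis, quinone reduction and peroxide repair are transcribed. The control is largely at the level of the protein, so the RNA of Nfe2l2 is not a measure of NRF2 activity, which was not measured here. Contracting muscle makes superoxide, which the superoxide dismutases turn into hydrogen peroxide for catalase and the peroxiredoxins to remove.

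The letters of the core antioxidant response element, TGACNNNGC, were searched on both strands of RefSeq promoter windows (GRCm38.p6, 250 bases before to 50 after the start of a gene), to show where sequences of the kind that NRF2 binds lie near these genes. Windows of 8 of the 10 genes were matched, and 4 of the 8 hold the letters, as do 12.4% of all 32851 windows. The genes were listed partly for being NRF2 targets. Their windows held from 53.3% (Keap1) to 79.7% (Gclm) G or C bases, against a median of 52.7% over all windows. No share was computed for windows of like composition. The 9 bases of each match are in capitals with 10 bases on either side, read 5′ to 3′ on the strand of the gene. Coordinates span the whole stretch printed, while the position given is that of the first base in capitals. On that strand the match of Nfe2l2 reads forward and the other matches read as the reverse complement.
Nfe2l2, chr2:75704885-75704913, minus strand, beginning at position −240 from the start: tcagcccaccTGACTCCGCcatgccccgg
Gclm, chr3:122245413-122245441, plus strand, beginning at position −134: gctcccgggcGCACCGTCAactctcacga
Sod1, chr16:90220696-90220724, plus strand, beginning at position −56: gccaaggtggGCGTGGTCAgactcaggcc
Srxn1, chr2:152105542-152105570, plus strand, beginning at position 29, after the start: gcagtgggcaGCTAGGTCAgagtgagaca
The windows of Keap1, Nqo1, Sod2 and Cat do not hold these letters. The E-box CACGTG, the sequence that CLOCK and BMAL1 bind, was in none of the 8 windows and in 7.15% of all windows. A match of letters shows neither binding nor a functional site, and elements outside these windows were not looked for.

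The libraries held 13842100 counts over 16155 genes (scKO) and 14727219 counts over 16375 genes (flox/flox). Cipc had 111 counts in scKO and 658 in flox/flox, a log2 ratio of −2.51 (−2.82 to −2.22), which is 5.72-fold lower in scKO. The 7 myofibre markers, Ckm and Acta1 among them, summed to 117470 CPM in scKO and 127748 CPM in flox/flox, above the sum of every other marker list. CPM are counts relative to the TMM-scaled size of the library. Ratios are scKO over flox/flox on the log2 scale, and brackets hold their 95% intervals, which cover counting error only. With 1 library a group there is no replicate check: the values compare these libraries, not the genotypes.

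None of the 10 genes reached a 2-fold difference between the libraries. Among the 12662 genes with at least 20 counts over both libraries, all 10 included, 1.49% passed 2-fold upwards in scKO and 1.91% downwards, with an interval that excludes equality. Those shares include genes with fewer counts than any member. Of the 8111 genes with summed counts in the range of the members, 39 passed 2-fold upwards and 53 downwards. With at least 100 counts the shares were 0.592% and 0.694%, so 0 of 10 is near what genes of like counts show. At 1.5-fold the count of members was again 0 in either direction, against 3.47% higher and 4.12% lower over all genes. The counts were deep enough to bound each gene: every interval lay inside 1.5-fold, with a lowest bound of 0.689-fold for Hmox1 and a highest of 1.47-fold for Nqo1. The median log2 ratio of the 10 genes was 0.0024, beside 0.0021 over all tested genes. Intervals lay above 0 for Nfe2l2, Nqo1 and Sod2 and below 0 for Cat. That is 3 of 10 above and 1 of 10 below, where the same held for 12.8% and 12.3% of all tested genes, and for 15.0% and 13.0% of the 8111 genes whose summed counts lay in the range of the members (170 to 7511).

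**Figure D1:**
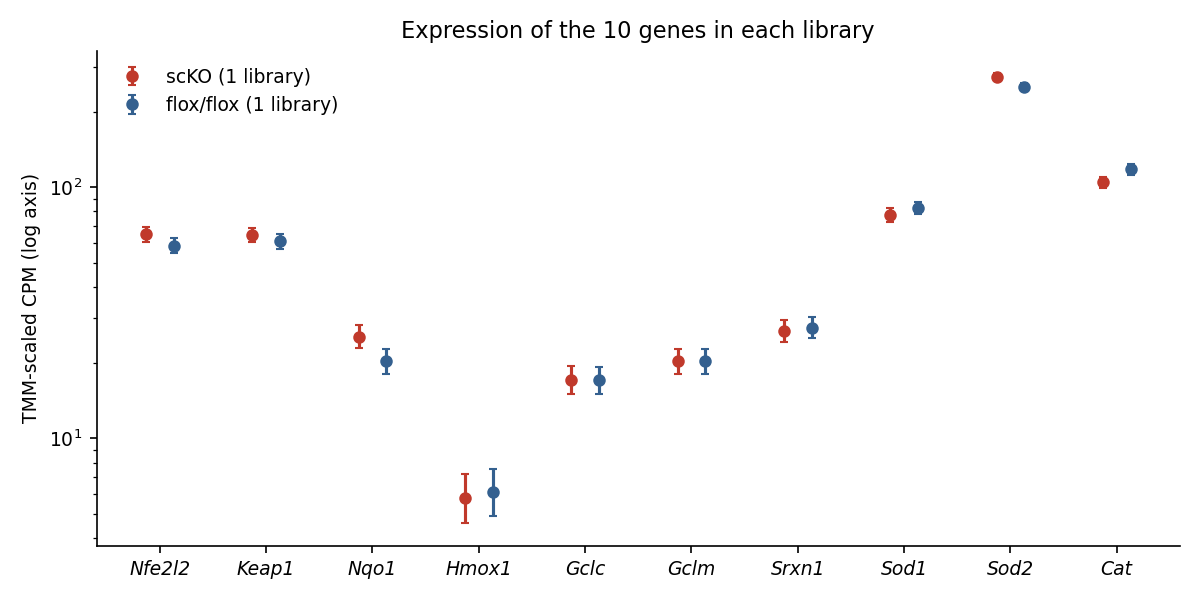
TMM-scaled CPM (log axis) of each gene in the scKO library (red, left) and the flox/flox library (blue, right), 1 library each; bars are 95% Poisson intervals of the count. Sod2 is the highest in both libraries (275 and 251 CPM) and Hmox1 the lowest (5.77 and 6.12 CPM), and the bars of the libraries are apart for Nqo1, Sod2 and Cat.

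The transcription factor and its inhibitor differed little between the libraries. Nfe2l2 (ENSMUSG00000015839, chromosome 2, 75675513 to 75704641, minus strand, in GRCm38 as for every position given) had 909 counts in scKO and 850 in flox/flox, or 64.8 and 58.5 CPM. Its log2 ratio was 0.15 (0.011 to 0.28), so the interval just cleared equality. Keap1 (ENSMUSG00000003308, chromosome 9, 21229730 to 21239361, minus strand) had 906 counts in scKO and 884 in flox/flox, with a log2 ratio of 0.087 (−0.049 to 0.22). Both were thus slightly higher in scKO, by 1.11-fold and 1.06-fold, and for Keap1 the interval includes equality. An antisense gene, Gm16754, overlaps 10.9% of the Keap1 exon bases but is listed at 0 in both libraries. Nfe2l2 shares no stretch of 50 bases with a transcript of another gene in GENCODE M21, and Keap1 shares 7.78% of such stretches with 1 other gene.

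Of the classical NRF2 targets, Nqo1 differed between the libraries and Hmox1 did not beyond counting error. Nqo1 encodes a quinone reductase and is widely used as a readout of NRF2. It (ENSMUSG00000003849, chromosome 8, 107388225 to 107403206, minus strand) had 356 counts in scKO and 294 in flox/flox, which is 25.4 and 20.2 CPM. The log2 ratio of 0.33 (0.10 to 0.55), or 1.25-fold, was the largest of the 10 in size. Yet 27.2% of all tested genes, those with fewer counts included, had a larger absolute ratio. Hmox1 encodes haem oxygenase 1, which opens the haem ring and is induced by haem as well as by oxidants. It (ENSMUSG00000005413, chromosome 8, 75093621 to 75100589, plus strand) had 81 counts in scKO and 89 in flox/flox. The log2 ratio was −0.084 (−0.54 to 0.37), the widest interval of the 10, and a difference inside that interval was not detectable at this depth. Hmox1 is also expressed by macrophages, whose markers were split in sign. Of 10 markers 9 were tested, and 1 interval lay above 0 (Cd163, 0.57) and 1 below (C1qc, −0.58). Cd68 (−0.46), Adgre1 (−0.42), Csf1r (0.35) and Mrc1 (0.23) had intervals that include 0. The summed level was 62.2 CPM in scKO and 60.8 CPM in flox/flox, with Marco at 0 in both. In whole muscle, fewer cells of a type and less RNA per cell cannot be told apart.

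The 2 genes of glutathione synthesis were nearest to equality among the 10. Gclc and Gclm encode the catalytic and modifier subunits of glutamate-cysteine ligase, the enzyme of the rate-limiting step. Gclc (ENSMUSG00000032350, chromosome 9, 77754535 to 77794485, plus strand) had 239 counts in scKO and 247 in flox/flox, a log2 ratio of 0.0036 (−0.26 to 0.27). Gclm (ENSMUSG00000028124, chromosome 3, 122245557 to 122270732, plus strand) had 284 counts in scKO and 294 in flox/flox, a log2 ratio of 0.0012 (−0.24 to 0.24). Both subunits stood at the median of all tested genes, and their ratio to each other in deposited FPKM was 2.04 in scKO and 2.03 in flox/flox. Of the 50-base stretches of Gclm, 4.58% occur in transcripts of 146 other genes, and for Gclc none do. Srxn1 (ENSMUSG00000032802, chromosome 2, 152105516 to 152111376, plus strand) encodes sulfiredoxin, which restores peroxiredoxins that peroxide has over-oxidised. It had 376 counts in scKO and 401 in flox/flox, with a log2 ratio of −0.042 (−0.25 to 0.16).

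The enzymes that act on superoxide and peroxide took opposite signs. Sod2, the manganese superoxide dismutase of mitochondria (ENSMUSG00000006818, chromosome 17, 13006846 to 13040063, plus strand), had 3864 counts in scKO and 3647 in flox/flox, with a log2 ratio of 0.13 (0.069 to 0.20). Sod1, the copper and zinc enzyme of the cytosol (ENSMUSG00000022982, chromosome 16, 90220754 to 90226329, plus strand), had 1087 counts in scKO and 1204 in flox/flox, with a log2 ratio of −0.096 (−0.22 to 0.023). Catalase, the peroxisomal enzyme that splits hydrogen peroxide (Cat, ENSMUSG00000027187, chromosome 2, 103453849 to 103485160, minus strand), had 1468 counts in scKO and 1710 in flox/flox, with a log2 ratio of −0.17 (−0.27 to −0.068). Sod2 was thus 1.10-fold higher in scKO and Cat 1.12-fold lower, while the interval of Sod1 includes equality. Of the annotated Sod2 stretches of 50 bases, 21.0% occur in transcripts of 415 other genes, so some of its reads could have been placed elsewhere.

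Markers of cell types are given as values, some beside an enzyme whose sign many of them share, and their part in the ratios was not tested. Beside Sod2, the nuclear genes of mitochondria had a median log2 ratio of 0.041 over 9 genes, with 4 intervals above 0 (among them Ndufs1 at 0.14 and Uqcrc2 at 0.10) and 2 below (among them Cs at −0.071). Their summed level was 6563 CPM in scKO and 6473 CPM in flox/flox. With total-count scaling 6 intervals lay above 0 and 0 below, and with DESeq2 size factors 3 lay above and 2 below. Beside Cat and Sod1, 6 of 7 myofibre intervals lay below 0, with a median of −0.084, among them Tnnt3 (−0.28) and Myh4 (−0.16), while Myh1 was higher in scKO (0.27). With so many counts the intervals are narrow and exclude 0 even at small ratios. Acta1, for example, had 341106 counts in scKO and 369713 in flox/flox (−0.065, −0.072 to −0.058). No share was computed for genes with as many counts. Of 7 slow and oxidative fibre markers, 4 intervals lay below 0, among them Myh7 (−0.27) and Tnnc1 (−0.25), and 1 above, Tnni1 (0.26); with total-count scaling 2 lay below and 3 above. The median of that list was −0.021, and its sum was 8159 CPM in scKO and 8615 CPM in flox/flox. Red blood cells are rich in catalase, and beside Cat the erythroid markers were lower in scKO: 5 of 7 were tested, all 5 intervals lay below 0, and their sum was 112 CPM in scKO and 146 CPM in flox/flox. The largest erythroid ratios were those of Alas2 (−0.59), Hba-a1 (−0.48), Hbb-bt (−0.42) and Hba-a2 (−0.38); the globin genes are near-identical, so the division of reads among them is uncertain. Slc4a1 had 0 counts in scKO and 3 in flox/flox. Fibroblast markers were also lower, with 5 of 6 intervals below 0 and sums of 883 and 1022 CPM, and endothelial ones higher, with 3 of 6 above and sums of 255 and 219 CPM in scKO and flox/flox. Satellite cell markers had a median of 0.18 over 5 genes, with 0 intervals above 0 and 1 below. That was Pax7, with 39 counts in scKO and 69 in flox/flox (−0.76, −1.38 to −0.19). Adipocyte markers had 1 of 6 intervals above 0 and 0 below, with sums of 206 CPM in scKO and 177 CPM in flox/flox. Smooth muscle markers had 1 of 4 above and 1 below, with sums of 83.5 and 76.0 CPM. Neutrophil markers, 5 in number, were at 0 in both libraries, which allows up to 0.214 CPM in scKO and 0.206 CPM in flox/flox for each.

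**Figure D2:**
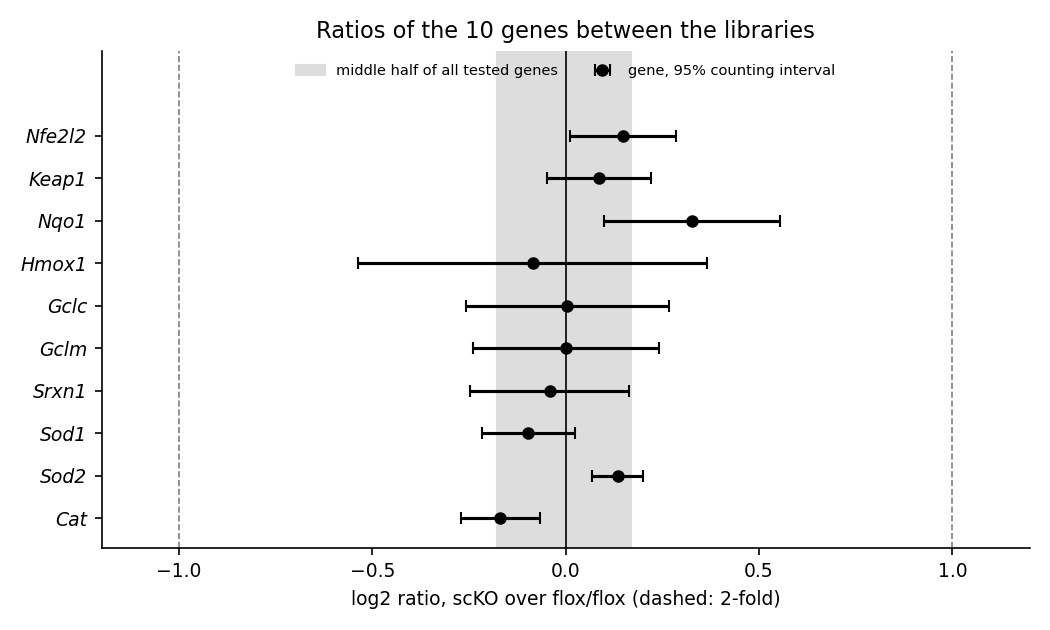
Log2 ratio of scKO over flox/flox for each gene with its 95% counting interval; the grey band lies between the quartiles of all tested genes (−0.18 and 0.17) and dashed lines mark 2-fold. Only the point of Nqo1, at 0.33, lies outside the band, and no interval reaches a dashed line.

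Against all tested genes, those with fewer counts included, the 10 genes lay close to the centre. Ratios of genes with few counts are spread more widely by counting error. No quartiles or percentiles were computed for genes of like counts. The quartiles of all tested genes were log2 ratios of −0.18 and 0.17, and 9 of the 10 genes fell between those values, with Nqo1 as the exception. Nqo1 stood at percentile 87.1 of the ratios of all tested genes and Cat, the lowest member, at percentile 25.6. The summed level of the 10 genes was 682 CPM in scKO and 662 CPM in flox/flox.

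**Figure D3:**
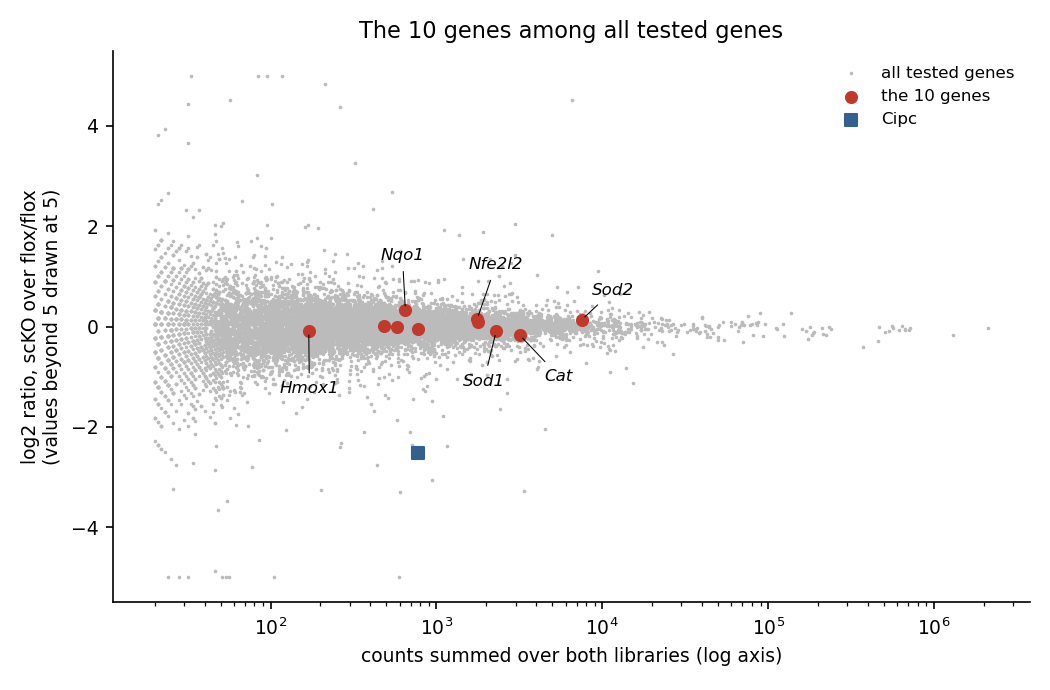
Log2 ratio of scKO over flox/flox against the counts summed over both libraries (log axis) for 12662 tested genes (grey), the 10 genes (red) and Cipc (blue square). The 10 genes lie between −0.17 and 0.33, while Cipc lies at −2.51 with a summed count of the same order.

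Levels of different genes can be compared only per length, and for the dismutases the order depended on the length used. In the FPKM of the authors (fragments scaled to the length of the gene and the size of the library), the order was the same in both libraries: Sod1 (122 FPKM in scKO, 127 in flox/flox), Sod2 (73.0 and 64.8), Cat (33.8 and 37.0), Nfe2l2 (16.7 and 14.7) and Nqo1 (16.6 and 12.9). Keap1 (8.35 and 7.66), Srxn1 (7.48 and 7.49), Gclc (5.04 and 4.90), Gclm (2.48 and 2.41) and Hmox1 (2.11 and 2.18) followed. Neighbours in that order whose counting intervals overlap in both libraries were Nfe2l2 with Nqo1, Keap1 with Srxn1, and Gclm with Hmox1. Sod1 stood at percentile 98.5 of all tested genes by FPKM in scKO and at 98.6 in flox/flox, and Hmox1 near the middle, at 49.6 and 51.1.

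The length behind the FPKM of Sod1 was 646 bases, near the 641 bases of its principal transcript in GENCODE M21, whereas all its annotated exons span 3970 bases. For Sod2 the FPKM length was 3824 bases, the principal transcript 5861 and all exons 10008. Per kilobase of principal transcript, Sod1 was 2.57 times Sod2 in scKO and 3.02 times in flox/flox. Per kilobase of all annotated exons it was 0.709 times Sod2 in scKO and 0.832 times in flox/flox, and Cat came first, at 40.1 and 45.0 CPM per kilobase. Under the principal length Sod2 was ahead of Cat in scKO (47.0 against 40.1 CPM per kilobase for Cat). In flox/flox Cat stood at 45.0 and Sod2 at 42.8 CPM per kilobase. Their counting intervals overlap there, so their order in flox/flox was not resolved. Length cancels in the ratio of a gene between the libraries, so the ratios above do not depend on it.

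**Figure D4:**
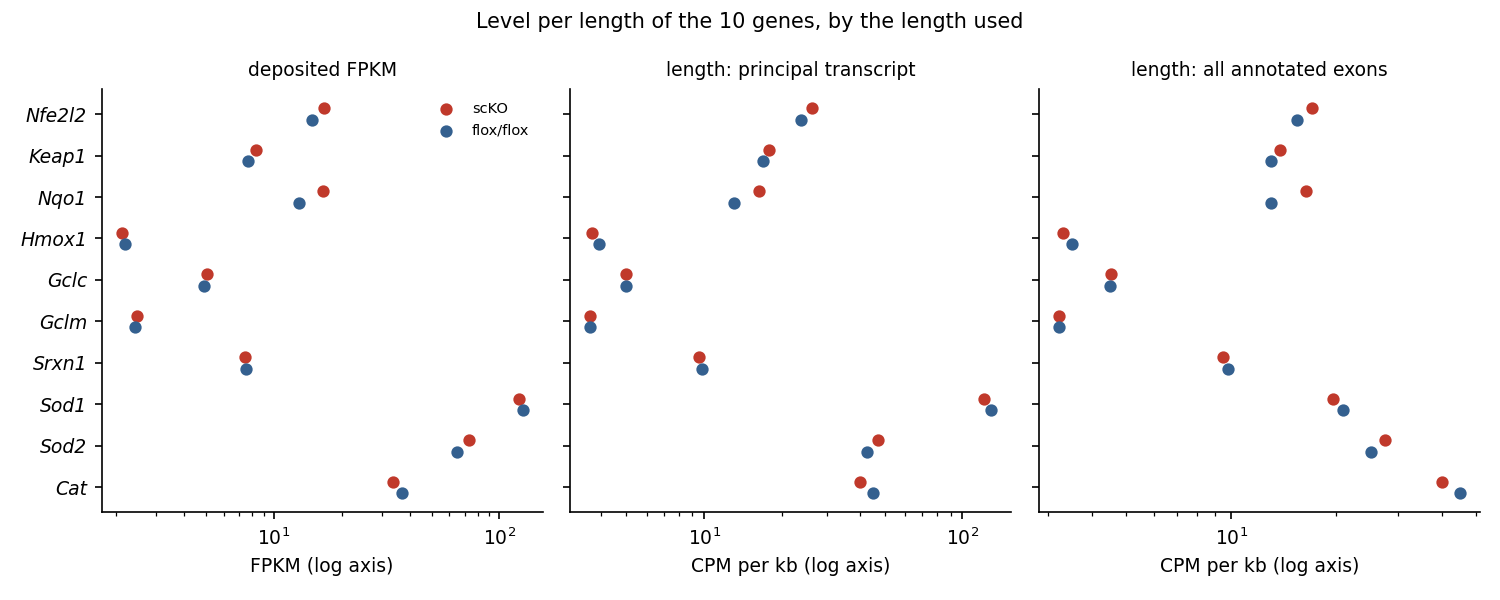
Level of each gene in scKO (red, upper point) and flox/flox (blue, lower point) on log axes, as deposited FPKM (left) and as CPM per kilobase of the principal transcript (middle) or of all annotated exons (right). Sod1 leads in the left and middle panels and stands behind Cat and Sod2 in the right one.

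The wider pathway was described with 99 further genes in 6 lists. Of the 90 that were tested, 0 passed 2-fold upwards in scKO and 2 downwards. Over all tested genes the shares were 1.49% and 1.91%. Of their intervals, 15 lay above 0 and 13 below (16.7% and 14.4%, against 12.8% and 12.3% of all genes), and the median log2 ratio was −0.0089.

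Regulators of KEAP1 and NRF2 had a median of −0.061 over 11 of 14 genes, with 0 intervals above and 2 below. Those were Sqstm1, the p62 protein that binds KEAP1 (−0.15, −0.20 to −0.094), and Gsk3b, a kinase that marks NRF2 for degradation (−0.19, −0.32 to −0.065). Cul3, the ligase scaffold, stood at −0.061 (−0.12 to 0.00079), and with DESeq2 size factors its interval lay below 0 (−0.13 to −0.0087). Bach1, a repressor at the same DNA elements, had 464 counts in scKO and 434 in flox/flox (0.15, −0.044 to 0.34). The NRF2 partner Mafk had 288 and 346 (−0.21, −0.44 to 0.016), so neither was resolved from equality. The ratios of all 11 tested regulators lay between −0.21 and 0.15. Nfe2l3 was at 0 in both libraries.

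Other NRF2 targets were mixed. Of 25 tested genes of 26, 3 had intervals above 0 and 4 below, with a median of −0.024. Idh1, a cytosolic source of NADPH, had 418 counts in scKO and 327 in flox/flox (0.40, 0.19 to 0.62). Ephx1, an epoxide hydrolase (0.39, 0.15 to 0.62), and Txn1, thioredoxin (0.24, 0.024 to 0.45), were also higher in scKO. The intervals below 0 were those of Pgd of the pentose phosphate pathway (−0.33, −0.63 to −0.034), the ferritin heavy chain gene Fth1 (−0.032, −0.061 to −0.0023), the light chain gene Ftl1 and Blvrb. With total-count scaling Fth1 changed sign (0.0067, −0.023 to 0.036) and the interval of Pgd reached 0 (−0.59 to 0.0048), which left 2 below. The deposited FPKM of Fth1 was 1516 in scKO and 1509 in flox/flox, so no direction is given for it. Blvrb, a flavin and biliverdin reductase abundant in red blood cells, had 49 counts in scKO and 119 in flox/flox, 2.34-fold lower in scKO (−1.22, −1.74 to −0.74). It was lower in the same library as the erythroid markers above, and whether the one accounts for the other was not tested. Ftl1 had 845 counts in scKO and 1246 in flox/flox (−0.51, −0.64 to −0.38), but 58.4% of its stretches of 50 bases occur in 17 other genes, so its count is uncertain. Akr1b8 had 15 and 24 counts, with an interval that includes 0.

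Among 20 other superoxide and peroxide genes, all tested, 4 intervals lay above 0 and 2 below, and the median was −0.010. The peroxiredoxins, thiol enzymes that reduce peroxides, did not share a sign. Prdx5 (0.26, 0.14 to 0.38) and Prdx6 (0.17, 0.027 to 0.30) were higher in scKO, Prdx1 was lower (−0.26, −0.36 to −0.16), and the mitochondrial Prdx3 stood at −0.014 (−0.10 to 0.075). Txnip, which binds and inhibits thioredoxin, had 6317 counts in scKO and 5055 in flox/flox (0.37, 0.32 to 0.43). Mitochondrial glutaredoxins differed in sign, with Glrx2 at −0.54 (−0.77 to −0.31) and Glrx5 at 0.31 (0.12 to 0.49). Gpx8, on 42 counts in scKO and 56 in flox/flox, and Sesn2, on 44 and 58, were not resolved from equality. Transcripts of other genes hold 15.5% of the 50-base stretches of Prdx5, 15.7% of those of Txnip and 8.81% of those of Prdx1.

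**Figure D5:**
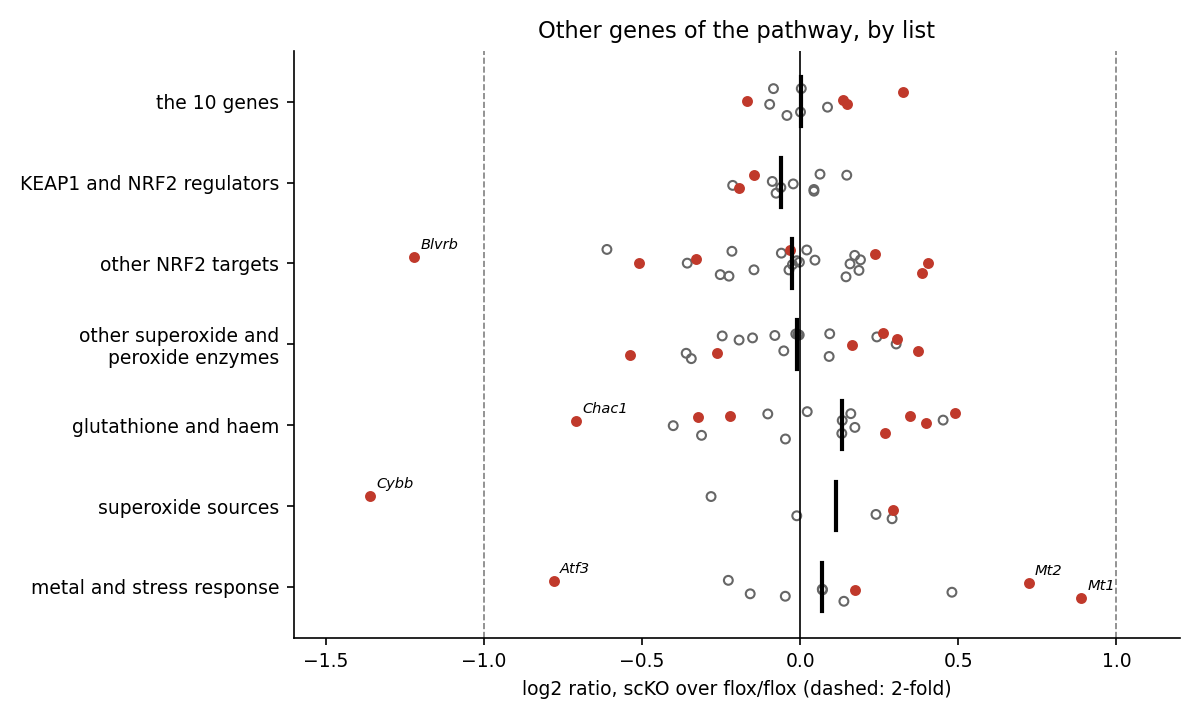
Log2 ratio of scKO over flox/flox for each tested gene of the 10 and of the 6 further lists; filled red points have 95% counting intervals that exclude 0, open points do not, black bars are medians and dashed lines mark 2-fold. The medians lie between −0.061 and 0.13, and Blvrb and Cybb are the points beyond a dashed line.

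Of 17 genes of glutathione and haem breakdown, 4 had intervals above 0 and 3 below, with a median of 0.13. Chac1, which degrades glutathione, had 746 counts in scKO and 1263 in flox/flox (−0.71, −0.84 to −0.58), and its relative Chac2 stood at 0.35 (0.083 to 0.62). The other intervals above 0 were those of Gstk1 (0.40), Por (0.27) and Hmox2, and the others below were those of the iron exporter Slc40a1 (−0.32) and Mgst1 (−0.22). The interval of Mgst1 included 0 with total-count scaling and that of Por with DESeq2 size factors. Hmox2, the constitutive haem oxygenase, stood at 0.49 (0.28 to 0.70), but 40.2% of its exon bases overlap Cdip1 on the opposite strand, which had 1105 counts in scKO and 1028 in flox/flox, so reads of the pair could be mixed. Gstt1 (0.45) and Ggt5 (−0.40) had intervals that include 0, though that of Gstt1 lay above 0 with total-count scaling (0.012 to 0.98). Of the superoxide sources, 6 of 11 genes were tested, with a median of 0.11. Cybb, the catalytic subunit of the phagocyte NADPH oxidase, had 14 counts in scKO and 38 in flox/flox, 2.62-fold lower in scKO (−1.36, −2.39 to −0.47). Xdh, xanthine dehydrogenase, was higher (0.29, 0.12 to 0.46), while Nox4, on 15 counts in scKO and 19 in flox/flox, was not resolved from equality. Duox2 was at 0 in both libraries. Beside Cybb, the macrophage sums were near each other and the markers split in sign, as given above. The part of macrophages in its ratio was not tested.

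Genes that answer to metals and general stress, set beside the pathway for comparison, had a median of 0.071 over 11 genes, with 3 intervals above 0 and 1 below. The metallothioneins Mt1, with 315 counts in scKO and 176 in flox/flox (0.89, 0.62 to 1.17), and Mt2, with 166 and 104 (0.72, 0.36 to 1.09), were higher in scKO, and Atf3, a stress-induced factor, was lower (−0.78, −1.12 to −0.45). Asns, on 15 and 11 counts, had an interval that includes 0. An antisense gene overlaps 73.5% of the Mt2 exon bases. The metallothionein ratios were larger than that of every one of the 10 genes, and Nqo1, at 0.33, had an upper bound of 0.55 that lies below the lower bound of 0.62 for Mt1. The lower bound of Mt2, 0.36, lies below that upper bound, so the intervals of Mt2 and Nqo1 overlap.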

How the data were processed

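The authors deposited a table of whole-number gene counts for both libraries, and FPKM per library. CASAVA, HISAT2 2.0.4, StringTie 1.3.0 and the build GRCm38 are named in the submitters' processing notes, without roles; strand setting and treatment of multiply mapping reads are not given in the sources used here. Lengths implied by the deposited FPKM and counts differed between the libraries by at most 0.0198% over 11572 genes. Counts were scaled by TMM (edgeR 4.0.16, R 4.3.3). Log2 ratios used a prior count of 0.5, genes a summed count of at least 20, and intervals the exact conditional binomial (Clopper-Pearson) method, with exact Poisson intervals for levels. Intervals and limits for 0 counts (3 counts) cover counting error only. With 1 library per genotype no p-value was computed; DESeq2 1.42.0 served only for alternative size factors. Python 3.11.15, scipy 1.17.1 and matplotlib 3.10.9 were used. A reference table of gene names matched 34267 of 34745 identifiers; positions, exons and transcripts came from GENCODE M21 (GRCm38). The procedure was tested on simulated data. The E-box search, the other transcript lengths, the shared 50-base stretches and the exon overlaps were added after the files were seen. The members and lists were chosen with earlier results of these data known. Named genes are the 10, Cipc, and up to 4 per list with the largest absolute ratio; others were named after their values were seen, and some list members are not reported here. A planned protein comparison was not made here.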

Additional observations from a re-analysis of the deposited data

How the results depend on the processing

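No paired analysis was possible because each genotype has 1 library. Over 8 alternatives (total-count scaling, DESeq2 size factors, mitochondrial genes left out before scaling, a prior count of 5, no filter, a minimum summed count of 100, FPKM with a pseudocount of 0.1, and 1.5-fold), all 216 recomputed values lay within set limits. Each ratio of the 10 genes lay inside its counting interval, and no count of the 10 genes changed. Each list median lay inside an interval for the median that was set by the ranked genes of its list. Those limits are loose: for the shortest lists the interval for the median runs from the lowest to the highest gene. Many values could not move, since the filters leave the ratios of the 10 genes as they were and the prior shifts them little. The number within limits is thus no measure of robustness. Nqo1 ranged from 0.32 to 0.36, Sod2 from 0.13 to 0.17, Nfe2l2 from 0.14 to 0.19 and Cat from −0.18 to −0.13. Gclc and Gclm changed sign under DESeq2 size factors (−0.0059 and −0.0083), as did the median of the 10 genes (−0.0071). Total-count scaling turned the medians of the other NRF2 targets (0.014) and of the other superoxide and peroxide genes (0.028) positive; the median of all genes moved to 0.040. Over all genes, 189 were 2-fold higher and 242 lower, against 58 and 68 with a minimum of 100, 278 and 369 without a filter, 127 and 128 in FPKM, and 440 and 522 at 1.5-fold. The FPKM counts rest on the fold alone, while the others also require an interval that excludes equality. The superoxide sources have no median at the minimum of 100 counts, where too few were tested. Hmox1, on 170 counts in all, is the member that depth limits most.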
